A study of Mus musculus with 18 samples.

Results

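The genes described here are 9 amino acid transporters of mouse CD4 T cells, namely Slc7a5, Slc3a2, Slc7a1, Slc7a6, Slc7a11, Slc1a5, Slc1a4, Slc38a1 and Slc38a2, out of 37991 genes with read counts. They were taken by name, as carriers known from lymphocytes, and no measured value entered the rule. Earlier results of these data were, however, known when the genes were chosen. All 9 had a row in each of the 18 RNA-seq libraries and all 9 passed the filter on low counts, which kept 17240 genes.

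All mice were Tg4-H2u animals aged 6 to 12 weeks, male or female, whose CD4 T cells carry mostly a transgenic T cell receptor for an N-terminal peptide of myelin basic protein. Tolerized mice (T) had been given the higher affinity 4Y peptide under the skin in rising doses, and control mice (N, predominantly naive cells) had been given PBS on the same schedule. In N0 and T0 the last injection, 2 h before harvest, was PBS, whereas in NAg and TAg it was the 4Y peptide (antigen, Ag). In NPI and TPI, purified cells from control or tolerized mice were cultured for 2 h with PMA, a phorbol ester that activates protein kinase C, and a calcium ionophore (together PI), which bypass the receptor. Each of the 6 groups had 3 libraries, made from rRNA-depleted total RNA of splenic CD4 T cells enriched by removal of other cells. Resting N0 and T0 cells were not cultured, so that PI and culture cannot be told apart in NPI against N0 or TPI against T0.

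Amino acids cross the plasma membrane through carriers of the solute carrier (SLC) families. Slc7a5 (LAT1), Slc7a6 (y+LAT2) and Slc7a11 (xCT) are light chains that do the transport and reach the membrane only when joined to the heavy chain CD98, encoded by Slc3a2. LAT1 takes up leucine and other large neutral amino acids in exchange for intracellular amino acids such as glutamine, y+LAT2 exchanges cationic for neutral amino acids, and xCT takes up cystine in exchange for glutamate. Slc7a1 (CAT1) carries arginine, lysine and ornithine without a heavy chain. Slc1a5 (ASCT2) and Slc1a4 (ASCT1) exchange small neutral amino acids with sodium, ASCT2 being a main glutamine carrier, and Slc38a1 (SNAT1) and Slc38a2 (SNAT2) load cells with glutamine, alanine and related amino acids against a gradient. T cells leaving rest are known to raise amino acid uptake, which feeds protein synthesis and the leucine-sensing mTORC1 kinase complex.

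Several carriers are textbook targets of ATF4, a factor made when amino acids run short, so the start regions were searched for its amino acid response element (TGATGNAA), for the E-box bound by MYC (CACGTG), for the AP-1 site (TGANTCA) and for the antioxidant response element (TGACNNNGC), each on both strands. RefSeq entries (GRCm38.p6) from 250 bases before to 50 bases after a start site matched 6 of the 9 genes, with 8 start sites. The table used here has no entry for Slc7a5, Slc1a5 or Slc38a1. The start regions with a response element for ATF4 (Slc7a11 and Slc1a4), with an AP-1 site (Slc7a1) and of the carrier with the highest level after PI (Slc38a2) are shown 5′ to 3′ on the strand of the gene, with matches in capitals. They span chr3:50443564-50443863 for Slc7a11, chr11:20332664-20332963 for Slc1a4, chr5:148399855-148400154 for Slc7a1 and chr15:96699679-96699978 for Slc38a2, all on the minus strand.
Slc7a11: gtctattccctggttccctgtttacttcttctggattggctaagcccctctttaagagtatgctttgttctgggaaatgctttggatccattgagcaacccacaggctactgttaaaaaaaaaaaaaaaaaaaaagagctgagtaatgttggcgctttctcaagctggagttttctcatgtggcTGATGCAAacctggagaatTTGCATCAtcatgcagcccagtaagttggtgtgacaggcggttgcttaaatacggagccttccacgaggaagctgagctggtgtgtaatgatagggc
Slc1a4: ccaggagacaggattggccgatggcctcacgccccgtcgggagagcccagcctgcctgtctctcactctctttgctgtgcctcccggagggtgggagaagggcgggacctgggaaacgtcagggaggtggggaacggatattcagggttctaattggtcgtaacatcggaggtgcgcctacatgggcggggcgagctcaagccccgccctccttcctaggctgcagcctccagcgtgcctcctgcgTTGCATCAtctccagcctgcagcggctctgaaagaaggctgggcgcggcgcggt
Slc7a1: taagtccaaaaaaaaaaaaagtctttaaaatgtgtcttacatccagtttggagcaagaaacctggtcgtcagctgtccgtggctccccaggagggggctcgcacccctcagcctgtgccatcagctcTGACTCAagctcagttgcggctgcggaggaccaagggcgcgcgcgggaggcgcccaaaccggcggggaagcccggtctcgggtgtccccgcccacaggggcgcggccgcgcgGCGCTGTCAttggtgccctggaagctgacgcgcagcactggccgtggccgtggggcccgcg
Slc38a2: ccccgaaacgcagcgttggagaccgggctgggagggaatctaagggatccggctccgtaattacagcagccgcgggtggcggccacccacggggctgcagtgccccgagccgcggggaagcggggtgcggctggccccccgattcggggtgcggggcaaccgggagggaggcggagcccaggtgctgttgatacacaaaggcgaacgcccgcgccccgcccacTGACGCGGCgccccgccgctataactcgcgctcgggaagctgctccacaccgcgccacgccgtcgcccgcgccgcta

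The Slc7a11 region held the amino acid response element at 2 places, beginning 66 and 47 bases before the start site on opposite strands (TGATGCAA and TTGCATCA), and the Slc1a4 region held it from 4 bases before the start site, so that it spans that site (TTGCATCA). Of all 32851 start regions in the table, 3.97% held this motif. The Slc7a1 region shown held an AP-1 match (TGACTCA) that began 123 bases before the start site and a match to the antioxidant response element at 11 bases before it (GCGCTGTCA), and a second Slc7a1 start site held no match. Slc38a2 and Slc7a6 held the antioxidant response element (TGACGCGGC and TGACGTGGC), which 12.4% of all start regions held. AP-1 matches stood in 7.81% of them and E-box matches in 7.15%. The Slc3a2 region held none of the 4 motifs, and none of the 6 genes held the E-box in this window.

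Read counts per library ran from 10758571 to 24119489, with a median of 12268935. Normalized counts below are read counts divided by a relative library size (TMM), and fold changes, with their SE, are on the log2 scale. Each adjusted p is edgeR's, by its quasi-likelihood test, adjusted by Benjamini-Hochberg over the 17240 genes. "Called" means an adjusted p under 0.05. Nothing in the labels ties a library to 1 animal, so these p-values measure the spread between libraries of a group. That spread was estimated over all 6 groups together, with 3 libraries in each. Counts of Y-linked genes divided the libraries into 9 with at least 5111 reads (all NPI and TPI, T0 replicates 1 and 2, TAg replicate 3) and 9 with at most 18, so that naive cells differed in sex as well as in treatment between NPI and N0 or NAg. Neutrophil markers summed to 55.5 to 158 normalized counts in N0 and 1604 to 2868 in T0, and all 7 of 7 were called higher in T0. They summed to 122 to 308 in NAg and 1989 to 3489 in TAg (7 of 7 higher), and to 62.8 to 170 in NPI and 395 to 669 in TPI (6 of 7 higher, with Ngp, Ltf and Camp at 0 in NPI). The 8 macrophage markers reached 1821 in NAg replicate 1 against 275 in the lowest NAg library, and 7 of them were lower in TAg than in NAg. CD4 T cell markers summed to 15031 or more in every library. Their mean sum was 29424.5 in N0, 26824 in T0, 15681 in NAg, 21191 in TAg, 51154 in NPI and 55117 in TPI. Of these 7 markers, 1 was higher and 6 lower in NAg than in N0. In tolerized against naive cells, 1 was higher and 2 lower at rest, 5 and 0 after antigen, and 2 and 3 after PI. B cell markers summed to 221 to 1857 and CD8 markers to 51.3 to 260. Of the 2 CD8 markers, 1, 1 and 2 were lower in tolerized cells at rest, after antigen and after PI. Erythroid markers summed to 11.9 to 1880, with the highest in T0 replicate 1 and 0 of 6 called in any comparison. The part of these other cells in the values below was not tested, and in RNA from many cells fewer cells of a type cannot be told apart from less RNA per cell.

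**Figure D1:**
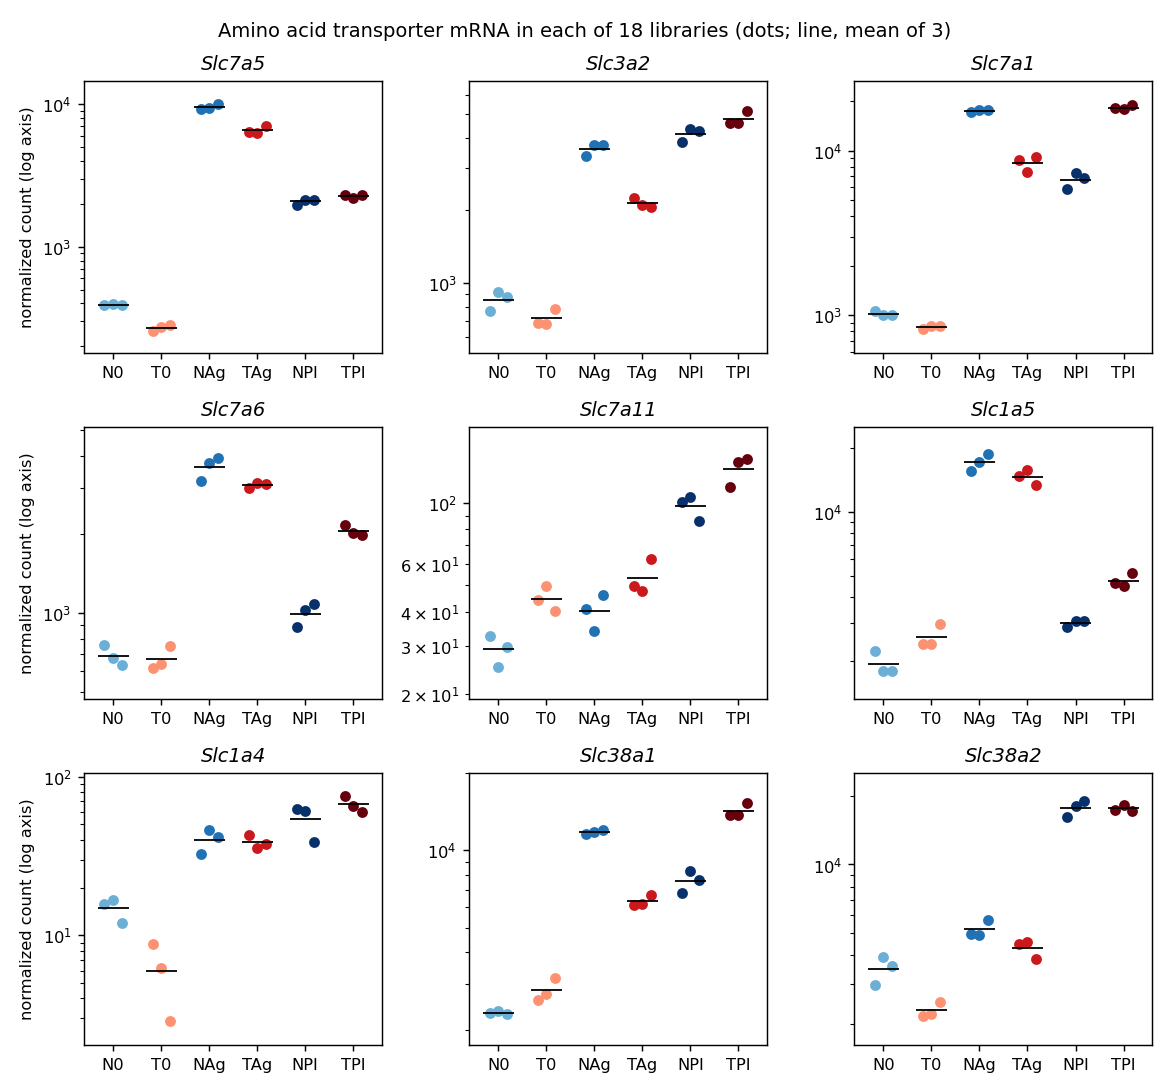
Normalized counts (log axis) of the 9 transporters in each of the 18 libraries, by group, with dots for libraries and a line for the mean of 3. Slc7a5 ran from 257 to 280 in T0 to between 9193 and 10092 in NAg, whereas Slc38a2 was highest in NPI and TPI, with dots of both groups intermingled.

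Slc7a5 (LAT1; chr8:124405052-124431594 on the minus strand, NCBIM37, with 10 exon blocks) had the widest range of the 9 genes over the 6 groups, 35.3-fold from the T0 mean to the NAg mean. Its normalized counts were 388, 396 and 387 in N0 and 257, 275 and 280 in T0. After antigen they were 9193, 9356 and 10092 in NAg and 6399, 6294 and 7009 in TAg. After PI they were 1976, 2142 and 2112 in NPI and 2307, 2210 and 2309 in TPI. The libraries of no group overlapped those of its neighbour in the order NAg, TAg, TPI, NPI, N0 and T0. Antigen raised Slc7a5 by 4.61 ± 0.07 on the log2 scale in naive cells (24.5-fold, adjusted p = 1.3e-23) and by 4.60 ± 0.08 in tolerized cells (24.3-fold, adjusted p = 5.1e-23). The difference between these responses was -0.01, with a 95% interval of -0.21 to 0.19, so the lower level in TAg than in NAg (-0.54 ± 0.06, adjusted p = 3.2e-07) was as large as the lower level in T0 than in N0 (-0.53 ± 0.07, adjusted p = 2.2e-05). PI raised it by 2.41 ± 0.07 in naive cells and by 3.07 ± 0.07 in tolerized cells, a larger response in tolerized cells by 0.66 ± 0.10 (adjusted p = 2.5e-05), and TPI and NPI then differed by 0.13 ± 0.06 (adjusted p = 0.11).

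Slc3a2 (the CD98 heavy chain; chr19:8781372-8797859, minus strand) moved over a smaller range, 6.68-fold, and was highest after PI. Its counts were 767, 917 and 876 in N0, and 684, 680 and 785 in T0, so that the resting groups overlapped. They were 3358, 3717 and 3716 in NAg against 2241, 2098 and 2072 in TAg. They were 3840, 4330 and 4257 in NPI against 4598, 4587 and 5170 in TPI. Every NAg library lay above every TAg library and every TPI library above every NPI library. Antigen raised Slc3a2 by 2.08 ± 0.08 in naive and 1.58 ± 0.08 in tolerized cells, and the response was smaller in tolerized cells by 0.50 on the log2 scale (-0.50 ± 0.11, adjusted p = 0.0024). After PI it rose by 2.28 ± 0.08 and 2.74 ± 0.08, with a larger response in tolerized cells by 0.46 ± 0.11 (adjusted p = 0.0047; 0.24, adjusted p = 0.088, when counts were scaled by library totals). TAg was lower than NAg by -0.75 ± 0.08 (adjusted p = 8.1e-08). The calls of T0 against N0 (-0.25 ± 0.08, adjusted p = 0.032) and of TPI against NPI (0.21 ± 0.08, adjusted p = 0.037) were lost on leaving out any of 4 and of 3 libraries, with adjusted p up to 0.15 and 0.19. With library totals both were lost as well (adjusted p = 0.22 and 0.30). The call at rest was also lost with a term for sex (adjusted p = 0.31) and with only the groups compared (adjusted p = 0.16).

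Light chain and heavy chain mRNA therefore did not keep 1 ratio. Per exon length (RPKM, reads scaled by exon length and library size), the ratio of Slc7a5 to Slc3a2 was 0.363 to 0.426 in N0 and 0.300 to 0.340 in T0. It was 2.12 to 2.30 in NAg and 2.40 to 2.85 in TAg, above every library of the other 4 groups. After PI it was 0.416 to 0.433 in NPI and 0.376 to 0.422 in TPI, within or just above the range of N0. With Slc7a6 and Slc7a11 added to Slc7a5, the mean ratio to Slc3a2 was again highest after antigen, at 3.04 ± 0.10 (SD, n = 3) in NAg and 3.74 ± 0.29 in TAg. Here the PI groups, at 0.619 ± 0.007 in NPI and 0.752 ± 0.058 in TPI, lay below the resting groups, at 1.04 ± 0.15 in N0 and 1.08 ± 0.03 in T0. A ratio of mRNA says nothing of the protein pairs, since other light chains also join CD98.

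Slc7a6 (y+LAT2; chr8:108692775-108722604, plus strand) had counts of 754, 674 and 637 in N0 and of 618, 639 and 749 in T0, which overlapped. They rose to 3212, 3768 and 3919 in NAg and to 3011, 3138 and 3106 in TAg. They were 885, 1027 and 1081 in NPI and 2172, 2023 and 1988 in TPI. Slc7a6 was thus highest after antigen, and after PI each tolerized library was above each naive one. Antigen raised it by 2.40 ± 0.09 in naive and 2.21 ± 0.09 in tolerized cells, with no call on the difference (-0.19, 95% interval -0.46 to 0.07, adjusted p = 0.32). PI raised it by 0.54 ± 0.09 in naive cells (adjusted p = 1.8e-05) and by 1.62 ± 0.09 in tolerized cells, a difference of 1.09 ± 0.13 (adjusted p = 1.6e-06). The rise in naive cells after PI depends on the scaling, since library totals gave -0.04 (adjusted p = 0.64). The call of TAg against NAg (-0.24 ± 0.09, adjusted p = 0.033) was lost on leaving out any of 5 of the 6 libraries. It was also lost with a term for sex (-0.20, adjusted p = 0.087) and with library totals (-0.05, adjusted p = 0.60).

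Slc7a11 (xCT; chr3:50168858-50247535, minus strand) was scarce, with 24 to 200 reads per library and at most 0.193% of the summed RPKM of the 9 genes in any group. Its normalized counts were 32.7, 25.1 and 29.8 in N0, 44.2, 49.5 and 40.3 in T0, 40.7, 34.1 and 46.2 in NAg and 49.5, 47.7 and 62.5 in TAg. After PI they were 101, 106 and 85.7 in NPI and 115, 142 and 145 in TPI, above all other groups. PI raised Slc7a11 by 1.73 ± 0.19 in naive cells (3.32-fold, adjusted p = 2.7e-08) and by 1.58 ± 0.18 in tolerized cells (2.99-fold, adjusted p = 2.3e-08). Antigen gave 0.47 ± 0.21 in naive cells (adjusted p = 0.054) and 0.26 ± 0.19 in tolerized cells (adjusted p = 0.26), so neither passed. Slc7a11 was the only one of the 9 genes with no call after antigen in either cell state, although the naive value passed with DESeq2 size factors (adjusted p = 0.035) and with a term for sex (adjusted p = 0.050), and the tolerized value was -0.08 with library totals. T0 was above N0 by 0.61 ± 0.20 (adjusted p = 0.033) and TPI above NPI by 0.46 ± 0.17 (adjusted p = 0.031). The first call was lost with DESeq2 (adjusted p = 0.063) and with a term for sex (0.41, adjusted p = 0.32). It was also lost with no filter on low counts (adjusted p = 0.063) and with only the groups compared (adjusted p = 0.076). The second call was lost with library totals (0.35, adjusted p = 0.12) and with no filter on low counts (adjusted p = 0.061). Each was lost on leaving out any of 4 of the 6 libraries.

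Slc7a1 (CAT1; chr5:149138986-149211480, minus strand, 15 exon blocks) differed most of the 9 genes between naive and tolerized cells after stimulation, and in opposite directions after antigen and after PI. Its counts were 1064, 997 and 1006 in N0 and 822, 859 and 853 in T0. After antigen they were 17087, 17635 and 17647 in NAg and 8805, 7399 and 9116 in TAg, fewer in every tolerized library. After PI they were 5843, 7346 and 6775 in NPI and 18062, 17915 and 18893 in TPI, more in every tolerized library. The level in TPI, the highest of the 6 groups, was 1.05-fold that in NAg. TAg was lower than NAg by -1.05 ± 0.08 (0.484-fold, adjusted p = 6.1e-10), and TPI was higher than NPI by 1.46 ± 0.08 (2.75-fold, adjusted p = 5.2e-12).

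Antigen raised Slc7a1 by 4.09 ± 0.09 in naive cells (17.1-fold) and by 3.32 ± 0.09 in tolerized cells (9.99-fold). PI raised it by 2.70 ± 0.09 in naive cells (6.51-fold) and by 4.44 ± 0.09 in tolerized cells (21.7-fold). Compared with naive cells, the tolerized response was smaller after antigen (-0.77 ± 0.12, adjusted p = 3.3e-05) and larger after PI (1.73 ± 0.12, adjusted p = 1.1e-09). Both of these calls and both directions held in the 7 refits under other settings and in the 12 without 1 library, although the antigen difference was below 2-fold. At rest T0 was slightly lower (-0.28 ± 0.08, adjusted p = 0.023), a call that was lost without N0 replicate 1 or T0 replicate 1 (adjusted p = 0.0645 and 0.0801). This call was also lost with library totals (adjusted p = 0.22) and with only the groups compared (adjusted p = 0.058).

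Slc1a5 (ASCT2; chr7:17366695-17383623, plus strand) followed antigen far more than PI. Its counts were 2211, 1777 and 1791 in N0 and 2387, 2403 and 2971 in T0. They were 15551, 17249 and 18680 in NAg and 14826, 15709 and 13392 in TAg, and the groups overlapped. After PI they were 2887, 3076 and 3084 in NPI and 4621, 4482 and 5163 in TPI, and NPI overlapped with resting T0. Antigen raised Slc1a5 by 3.16 ± 0.11 in naive cells (8.91-fold) and by 2.50 ± 0.10 in tolerized cells (5.66-fold), a smaller response in tolerized cells (-0.65 ± 0.14, adjusted p = 0.0012). PI raised it by 0.65 ± 0.10 in naive cells (adjusted p = 4.1e-06) and by 0.88 ± 0.10 in tolerized cells (adjusted p = 2.5e-08), with no call on the difference (0.23, 95% interval -0.05 to 0.52). With library totals these PI responses were 0.07 and 0.09 (adjusted p = 0.53 and 0.39).

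Tolerized cells held more Slc1a5 at rest (0.43 ± 0.10, adjusted p = 0.0034) and after PI (0.66 ± 0.10, adjusted p = 9.1e-06). After antigen the value was -0.23 ± 0.10 (adjusted p = 0.062), which passed with DESeq2 size factors in edgeR (-0.27, adjusted p = 0.029), with DESeq2 (adjusted p = 0.025) and without NAg replicate 1 or TAg replicate 2 (adjusted p = 0.033 and 0.046). Other settings brought the value nearer to no difference. It was -0.05 with library totals (adjusted p = 0.70) and -0.15 with a term for sex (adjusted p = 0.19). Without NAg replicate 3 or TAg replicate 3 it was -0.16 and -0.17 (adjusted p = 0.25 and 0.23). The smaller antigen response of Slc1a5 in tolerized cells went with a higher resting level and with overlapping TAg and NAg levels.

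Slc1a4 (ASCT1; chr11:20202183-20232716, minus strand) had few reads, 3 to 10 in the T0 libraries and 93 reads at most. Its normalized counts were 15.8, 16.7 and 11.9 in N0, and 8.85, 6.18 and 2.88 in T0. They were 32.4, 45.8 and 41.8 in NAg, 42.9, 35.8 and 37.9 in TAg, 62.4, 60.5 and 39.0 in NPI and 75.1, 65.9 and 59.5 in TPI, so that all stimulated libraries were above all resting ones. Antigen raised Slc1a4 by 1.43 ± 0.29 in naive and 2.66 ± 0.32 in tolerized cells, and PI by 1.85 ± 0.28 and 3.44 ± 0.30. The PI response was larger in tolerized cells by 1.59 ± 0.43 (adjusted p = 0.0097). The like difference after antigen, 1.24 ± 0.44 (adjusted p = 0.049), was lost in 9 of the 12 fits without 1 library and in 4 of 7 other alternatives. Stimulated tolerized and naive cells did not differ by a call (TAg against NAg -0.04, 95% interval -0.57 to 0.49; TPI against NPI 0.32, -0.16 to 0.79), whereas T0 was lower than N0 (-1.28 ± 0.36, adjusted p = 0.015). This resting call was lost with only the groups compared (adjusted p = 0.10). It was also lost without N0 replicate 2 (adjusted p = 0.054) or T0 replicate 3 (adjusted p = 0.059).

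Slc38a1 (SNAT1; chr15:96401849-96473344, minus strand) and Slc38a2 (SNAT2; chr15:96517825-96530129, minus strand) lie near each other and belong to 1 family, but had different profiles. Slc38a1 counts were 2322, 2359 and 2302 in N0 and 2615, 2763 and 3173 in T0. They were 11582, 11777 and 11976 in NAg and 6102, 6174 and 6721 in TAg. They were 6825, 8282 and 7685 in NPI and 13676, 13745 and 15199 in TPI. As with Slc7a1, naive cells held more after antigen and tolerized cells more after PI, with no overlap in either case.

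Antigen raised Slc38a1 by 2.34 ± 0.08 in naive cells (5.06-fold) but by 1.15 ± 0.08 in tolerized cells (2.22-fold). The difference, -1.19 ± 0.11 (adjusted p = 5.3e-08), was the largest shortfall of the tolerized antigen response among the 9 genes. After PI it rose by 1.71 ± 0.08 and 2.32 ± 0.08, a larger response in tolerized cells by 0.61 ± 0.11 (adjusted p = 0.00029). TAg was lower than NAg by -0.90 ± 0.08 (adjusted p = 5.1e-09), TPI higher than NPI by 0.90 ± 0.08 (adjusted p = 3.5e-09), and T0 higher than N0 by 0.29 ± 0.08 (adjusted p = 0.011; 0.075 without T0 replicate 3).

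Slc38a2 counts were 2972, 3954 and 3583 in N0 and 2172, 2228 and 2507 in T0. They were 4962, 4908 and 5723 in NAg and 4493, 4603 and 3844 in TAg, and TAg overlapped with N0. They were 16096, 18105 and 18859 in NPI and 17340, 18228 and 17147 in TPI, the groups in which it was highest. PI raised Slc38a2 by 2.34 ± 0.10 in naive cells (5.05-fold) and by 2.93 ± 0.10 in tolerized cells (7.63-fold), whereas antigen raised it by 0.57 ± 0.10 (1.48-fold, adjusted p = 1.2e-05; 0.17, adjusted p = 0.098, with library totals) and by 0.91 ± 0.10 (1.87-fold, adjusted p = 1.3e-08). The PI response was larger in tolerized cells by 0.60 ± 0.14 (adjusted p = 0.0024), from a lower resting level (T0 against N0 -0.61 ± 0.10, adjusted p = 9.9e-05) to the same range (TPI against NPI -0.01, 95% interval -0.21 to 0.19). The antigen responses differed by 0.34 ± 0.14 (adjusted p = 0.084, and called in 4 of the 12 fits without 1 library). TAg against NAg was -0.27 ± 0.10 (adjusted p = 0.028). This call was lost without TAg replicate 3 (adjusted p = 0.16) or NAg replicate 3 (adjusted p = 0.14). It was also lost with a term for sex (adjusted p = 0.086) and with library totals (-0.09, adjusted p = 0.44). The ratio of Slc38a2 to Slc38a1 in RPKM was 2.32 to 3.04 in N0, 0.756 to 0.867 in NAg and 3.97 to 4.45 in NPI, and 1.43 to 1.51, 1.04 to 1.35 and 2.05 to 2.41 in T0, TAg and TPI.

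Taking the 9 genes as a list, stimulation raised nearly all of them in both cell states. In NAg against N0, 8 of 9 were called higher and 0 lower, where 32.1% of all tested genes were higher and 33.4% lower, with a median log2 fold change of 2.34 against 0.00 over all tested genes. In TAg against T0, 8 of 9 were higher and 0 lower (29.9% of all in each direction), with a median of 2.21 against -0.05. In NPI against N0, 9 of 9 were higher (28.6% of all, with 32.7% lower), with a median of 1.85 against -0.06, and in TPI against T0 again 9 of 9 (31.9% of all, with 36.3% lower), with a median of 2.74 against -0.10. The replicates of stimulated and resting cells did not overlap for 9, 8, 9 and 9 of the genes in these comparisons, where 68.1%, 64.5%, 66.4% and 72.5% of all tested genes did not overlap. With a term for sex in the fit, 9 of 9 stayed higher in NPI than in N0, with log2 fold changes from 0.65 for Slc7a6 to 2.62 for Slc7a1. That term was set by T0 and TAg, the only groups with both sexes, so it cannot separate sex from PI in naive cells. Scaling by library totals moved the median of all genes by -0.36 for NAg against N0, -0.31 for TAg against T0, -0.54 for NPI against N0 and -0.73 for TPI against T0, which touches the small PI responses of Slc7a6 and Slc1a5. With a fold of at least 2 and a mean above 50 in the higher group required as well, 6 of 9 were higher in NAg than in N0 (14.2% of all tested genes), 6 in TAg than in T0 (12.1%), 7 in NPI than in N0 (10.1%) and 8 in TPI than in T0 (13.3%).

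**Figure D2:**
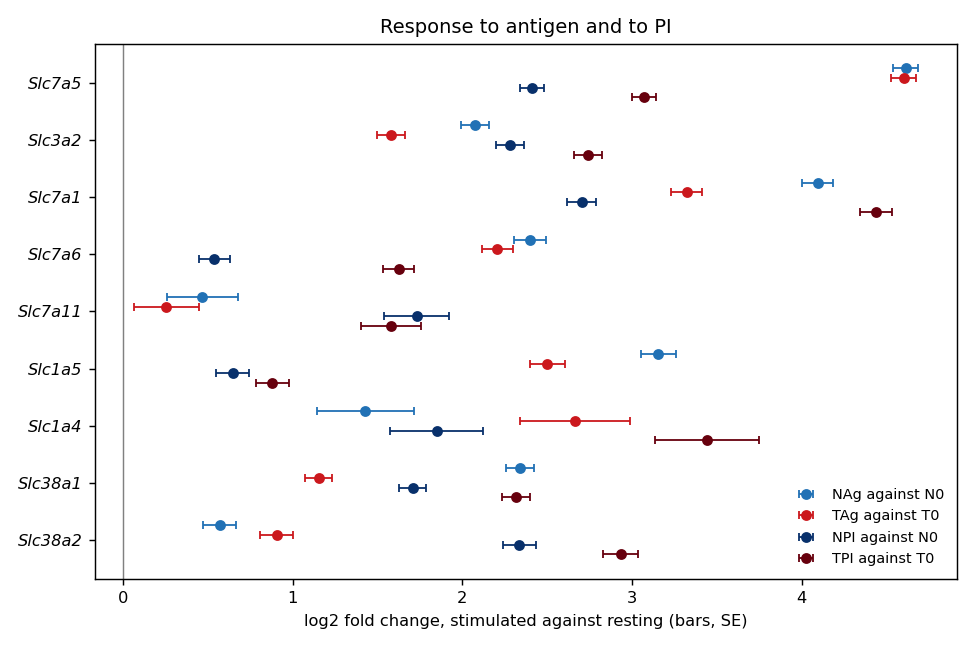
Log2 fold change (x axis) of each transporter (y axis) in the 4 comparisons of stimulated with resting cells, with SE as bars. Antigen points of Slc7a5 for naive and tolerized cells coincide at 4.61 and 4.60, Slc1a5 and Slc7a6 lie farther right for antigen than for PI, and Slc38a2 and Slc7a11 farther right for PI.

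Tolerized and naive cells differed by smaller amounts, and the direction differed between the antigen and the PI groups. Antigen was given by injection into mice and PI in culture. By Y-linked reads, all NPI and TPI libraries also differed in sex from every antigen library but TAg replicate 3. Stimulus, culture and sex therefore cannot be told apart here. In T0 against N0, 3 genes were called higher (Slc7a11, Slc1a5 and Slc38a1; 8.44% of all tested genes were higher) and 5 lower (Slc7a5, Slc3a2, Slc7a1, Slc1a4 and Slc38a2; 12% of all), and Slc7a6 was not called (-0.04, 95% interval -0.23 to 0.15). The calls of Slc7a5, Slc38a2 and Slc1a5 at rest were kept in the 7 refits under other settings and in the 6 without 1 library, but none of these differences reached 2-fold. In TAg against NAg, 6 genes were lower (18.4% of all) and 0 higher (21% of all), and in TPI against NPI 6 were higher (18.2% of all) and 0 lower (19.7% of all). Slc3a2, Slc7a1, Slc7a6 and Slc38a1 were in both of these counts of 6, lower after antigen and higher after PI. With a term for sex, 4 genes stayed lower in TAg than in NAg, and with library totals also 4. Slc7a6 and Slc38a2 lost their calls in both settings. With library totals, 4 were higher in TPI than in NPI. With a fold of at least 2 and a mean above 50 as well, 0 genes were higher in T0 than in N0 (2.61% of all) and 0 lower (0.644%), Slc7a1 was lower in TAg than in NAg (2.04% of all), and Slc7a1 and Slc7a6 were higher in TPI than in NPI (3.38% of all). The 3 comparisons of cell states use separate libraries. Replicates did not overlap for 7 of 9 genes in each of them, where 35%, 47.7% and 50.5% of all tested genes did not overlap at rest, after antigen and after PI. Neutrophil markers were higher in the tolerized libraries in all 3 comparisons. Their part in the transporter differences, among them the higher Slc7a11 and Slc1a5 of T0, was not tested.

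**Figure D3:**
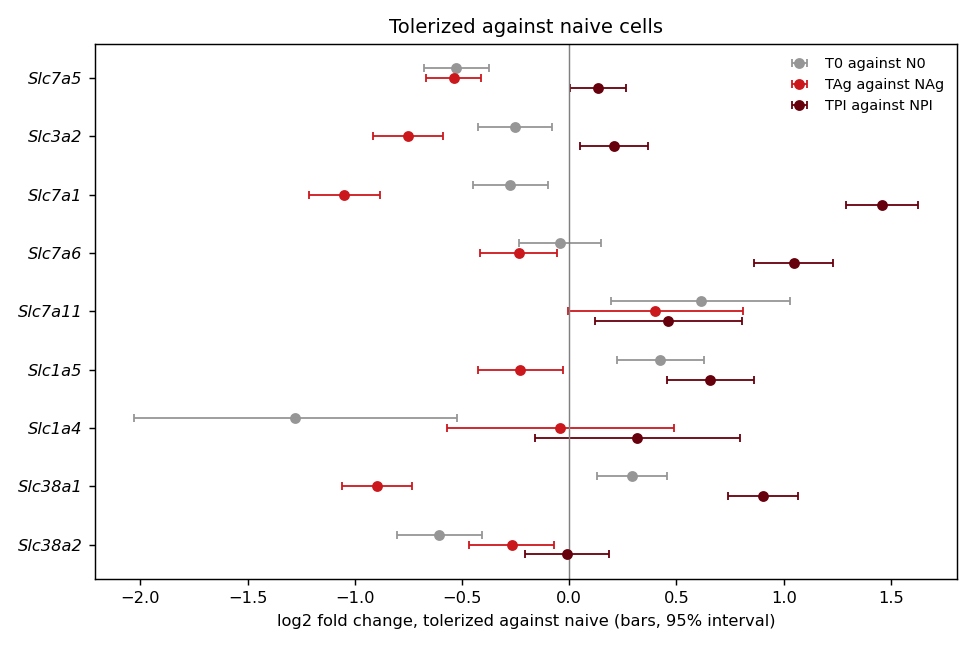
Log2 fold change of tolerized against naive cells (x axis) for each transporter (y axis) at rest, after antigen and after PI, with 95% intervals as bars. Slc7a1 lies at -1.05 after antigen and 1.46 after PI, and Slc38a1 at -0.90 and 0.90.

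The difference in response was tested directly, as the tolerized log2 fold change minus the naive one. For antigen, 4 genes had a smaller response in tolerized cells (Slc3a2, Slc7a1, Slc1a5 and Slc38a1; 7.08% of all tested genes) and 1 a larger one (Slc1a4; 14.6% of all). For PI, 7 genes had a larger response in tolerized cells (12.7% of all) and 0 a smaller one (7.58% of all), with Slc7a11 and Slc1a5 not called. The median difference of the 9 genes was -0.21 for antigen and 0.61 for PI, against 0.05 and -0.04 over all tested genes. The antigen and PI differences share the N0 and T0 libraries, so they are not independent. Slc7a5 had no detectable difference after antigen, and its interval leaves out differences beyond 0.21.

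**Figure D4:**
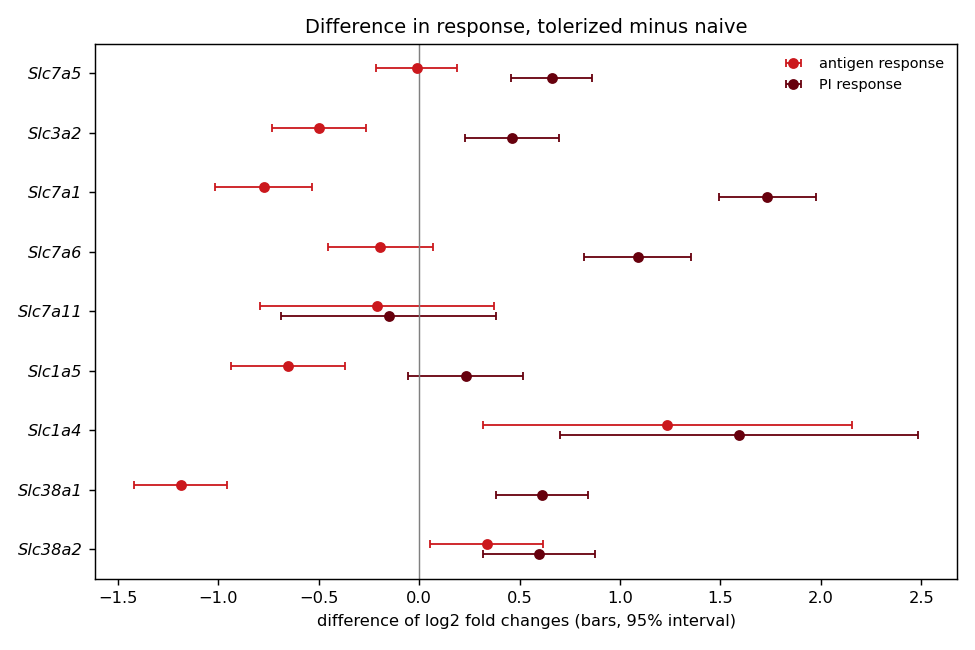
Difference between the tolerized and the naive log2 fold change (x axis) of each transporter (y axis), for antigen and for PI, with 95% intervals as bars. Slc7a1 and Slc38a1 lie left of 0 for antigen and right of 0 for PI, Slc7a5 lies at -0.01 for antigen, and the intervals of Slc7a11 span 0.

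Levels can be set side by side between genes only per exon length. The summed RPKM of the 9 genes was 159 to 169 in N0 and 142 to 168 in T0, and rose to 958 to 1076 in NAg, 703 to 721 in TAg, 577 to 658 in NPI and 857 to 896 in TPI. In N0 the largest shares of this sum were Slc38a2 with 34.0% ± 3.9 (SD, n = 3) and Slc1a5 with 20.9% ± 3.2, and Slc7a5 held 4.99% ± 0.10. In NAg the order was Slc1a5 with 29.7% ± 1.0, Slc7a5 with 19.6% ± 0.4 and Slc7a1 with 16.7% ± 0.7, while Slc38a2 held 8.08% ± 0.40. In TAg, Slc1a5 reached 36.1% ± 2.4 and Slc7a1 held 11.5% ± 1.4. After PI, Slc38a2 led with 44.3% ± 0.9 in NPI and 31.9% ± 1.6 in TPI, whereas Slc1a5 held 8.43% ± 0.32 and 9.60% ± 0.51, and Slc7a1 held 10.2% ± 0.5 in NPI but 20.4% ± 0.2 in TPI. The ratio of Slc1a5 to Slc38a1, both carriers of glutamine, was 2.71 to 3.15 in NAg and 4.02 to 5.14 in TAg, and 0.750 to 0.854 in NPI and 0.658 to 0.686 in TPI.

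**Figure D5:**
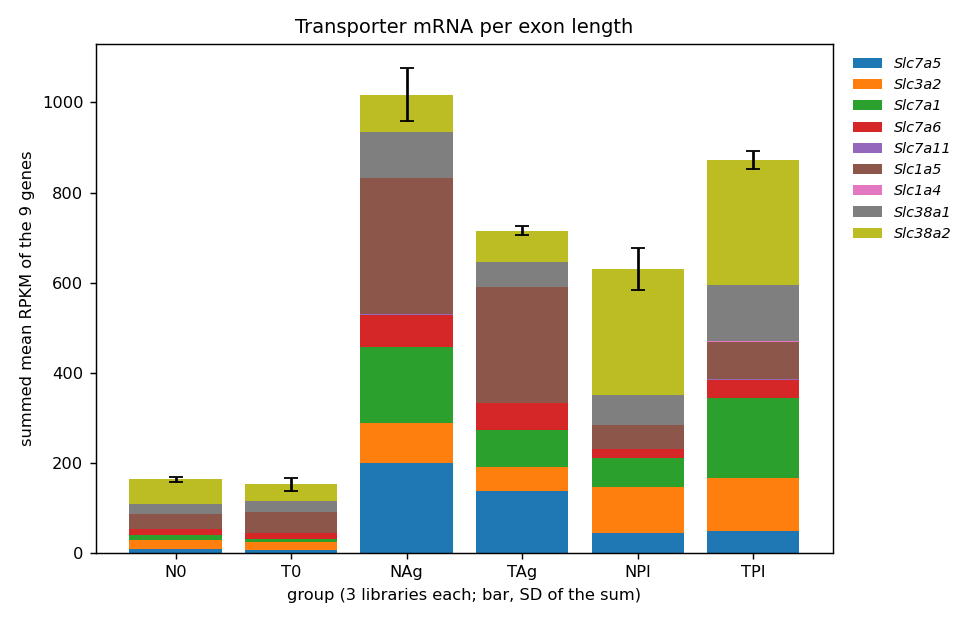
Summed RPKM of the 9 transporters (y axis, from 0) in each group (x axis), stacked by gene from group means, with the SD of the sum over 3 libraries as a bar. Slc1a5 and Slc7a5 take the largest shares in NAg and Slc38a2 the largest in NPI and TPI, while Slc7a11 and Slc1a4 are too scarce to see.

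Of 43 other genes listed as amino acid transporters, 30 passed the filter. In NAg against N0, 5 of 30 were higher and 12 lower (16.7% and 40%, against 32.1% and 33.4% of all tested genes), and in TAg against T0, 2 and 9 (6.67% and 30%, against 29.9% each). In NPI against N0, 8 were higher and 9 lower (26.7% and 30%, against 28.6% and 32.7%), and in TPI against T0, 10 and 9 (33.3% and 30%, against 31.9% and 36.3%). Among those lower after antigen were Slc43a2 (LAT4, a facilitative carrier of large neutral amino acids), with 1306 normalized counts in N0 and 72.3 in NAg (-4.18 ± 0.12, adjusted p = 2.9e-19), Ctns (the lysosomal cystine exporter), with 211 and 31.3, and Slc36a1 (PAT1, a lysosomal carrier of small amino acids), with 577 and 85.5. Among those higher were Slc38a10, with 1425 in N0 and 2759 in NAg (0.95 ± 0.08), and the taurine carrier Slc6a6, with 1557 and 2367 (0.60 ± 0.08). Slc43a1 (LAT3) was higher in T0 than in N0, at 93.9 against 17.4 (2.42 ± 0.31, adjusted p = 8.3e-06), and the aromatic amino acid carrier Slc16a10 was lower, at 138 against 270 (-0.97 ± 0.17, adjusted p = 0.00042). Tolerized against naive cells gave 3 higher and 1 lower of 30 at rest (10% and 3.33%, against 8.44% and 12% of all tested genes), 7 and 6 after antigen (23.3% and 20%, against 21% and 18.4%), and 5 and 3 after PI (16.7% and 10%, against 18.2% and 19.7%).

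All 33 genes of amino acid sensing upstream of mTORC1 passed the filter, and they went both ways after antigen, 14 higher and 14 lower in naive cells (42.4% each, where 32.1% and 33.4% of all tested genes were higher and lower) and 13 and 11 in tolerized cells (39.4% and 33.3%, where 29.9% of all were in each direction). Fnip2, a partner of folliculin, went from 56.6 in N0 to 805 in NAg (3.82 ± 0.13), and Rragd, a Rag GTPase, from 57.0 to 595 (3.38 ± 0.19, adjusted p = 6.1e-13). Rheb, the GTPase that activates mTORC1, went from 641 to 2070 in NAg and to 2950 in NPI. Sesn1, a leucine sensor of the sestrin family, fell from 1572 in N0 to 205 in NAg (-2.94 ± 0.15, adjusted p = 2.3e-12). After PI, 10 were higher and 16 lower in naive cells (30.3% and 48.5%, against 28.6% and 32.7% of all) and 13 and 15 in tolerized cells (39.4% and 45.5%, against 31.9% and 36.3%). Fnip1 went from 1350 in N0 to 11962 in NPI (3.15 ± 0.10), and Sesn2, which ATF4 is known to raise, from 61.3 to 518 (3.07 ± 0.13). Tolerized cells held less Rragd (301 against 595), Fnip1 (1137 against 1845) and Wdr59 (593 against 1059) than naive cells after antigen, among 12 genes lower and 8 higher (36.4% and 24.2%, against 18.4% and 21% of all). Among the 8 higher in TAg than in NAg were Lamtor4 (78.0 against 43.3), Wdr24 (237 against 155) and Lamtor2 (82.1 against 54.6). At rest 2 were higher and 4 lower (6.06% and 12.1%, against 8.44% and 12%), and after PI 5 and 11 (15.2% and 33.3%, against 18.2% and 19.7%).

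Of 27 genes that use amino acids, 25 passed the filter, and most were higher after stimulation. Antigen gave 18 higher and 4 lower in naive cells (72% and 16%, against 32.1% and 33.4% of all tested genes) and 16 and 4 in tolerized cells (64% and 16%, against 29.9% each). PI gave 14 and 7 in naive cells (56% and 28%, against 28.6% and 32.7%) and 15 and 8 in tolerized cells (60% and 32%, against 31.9% and 36.3%). The median over the 25 was 1.16 in NAg against N0, where it was 0.00 over all tested genes. Bcat1, the cytosolic branched-chain aminotransferase, went from 11.6 in N0 to 2527 in NAg (7.73 ± 0.27, adjusted p = 3.3e-13) and Shmt1, a serine hydroxymethyltransferase, from 69.8 to 5159 (6.20 ± 0.16). Odc1, which makes putrescine from the ornithine that CAT1 can carry, went from 432 to 9481 (4.46 ± 0.11), and was lower in TAg than in NAg (5079 against 9481, -0.90 ± 0.09, adjusted p = 5.4e-08). The mitochondrial aminotransferase Bcat2 fell from 717 in N0 to 248 in NAg (-1.53 ± 0.12). Asns, asparagine synthetase and a known ATF4 target, was higher in TAg than in NAg (117 against 34.2, 1.77 ± 0.30, adjusted p = 5.0e-05). Gls2, a glutaminase, had no reads in N0 and a mean of 101 normalized counts in NPI, and Arg1, arginase, had means of 1.67 and 58.2. Tolerized against naive cells gave 1 higher and 2 lower at rest (4% and 8%, against 8.44% and 12% of all), 4 and 11 after antigen (16% and 44%, against 21% and 18.4%), and 8 and 3 after PI (32% and 12%, against 18.2% and 19.7%).

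Profiles over the 6 group means were compared by the root mean square difference of centred log2(mean + 1) values, among 11554 genes. The 9 transporters had differing neighbours, and over these 6 points the closest pair among them was Slc3a2 and Slc38a1 (0.338), followed by Slc3a2 and Slc1a4 (0.343) and by Slc7a6 and Slc1a5 (0.389), whereas Slc7a5 and Slc7a11 were farthest apart (1.85). The genes nearest to Slc7a5 were Lta, which encodes lymphotoxin alpha (0.344), Txnrd3 and the transferrin receptor Tfrc. Nearest to Slc38a2 were the cyclin gene Ccnl1 (0.0861), the AP-1 gene Junb and Sertad1, and nearest to Slc38a1 were Stx6 (0.0946), Ppip5k2 and Cd82. Nearest to Slc3a2 were Uap1 (0.113), Birc3 and Bach1, and nearest to Slc1a5 were Gm13461 (0.137), the noncoding RNA gene Pvt1 and Fam108c. Slc7a1 was nearest to Gm2449 (0.229), U1 and Lonrf1, Slc7a6 to Rai12 (0.0718), 2410016O06Rik and Abcc1, Slc7a11 to Gm16041 (0.155), AC027184.1 and Il18rap, and Slc1a4 to Mreg (0.210), Gm7334 and Opn3. The nearest gene was farther from Slc7a5 than from any of the other 8.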

How the data were processed

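CD4 T cell RNA was measured by RNA-seq in 18 libraries, 3 in each of 6 groups taken from the labels' treatment field. The deposited files hold raw read counts per Ensembl gene, 1 file per library, with 1 blank line each. Per the labels, the authors enriched CD4 T cells from spleen and depleted rRNA, and the submitters' processing notes name TopHat2 2.1.1, HTSeq 0.9.1, DESeq2 1.18, edgeR 3.24 and the genome build mm9. Strand and overlap settings of the counting are not given in the sources used here. The gene Gm20388 lies over Slc7a5 on the opposite strand, with 0 shared exonic bases and 0 reads.

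The members and lists were chosen with earlier results of these data known. Gene names and exon lengths came from an annotation of the same build (NCBIM37), which matched 37205 of 37991 genes. Counts were scaled by TMM, and genes with a mean normalized count of at least 3 in 1 or more groups (17240) entered 1 robust quasi-likelihood fit of all 6 groups in edgeR 4.0.16 (R 4.3.3), with 9 contrasts and Benjamini-Hochberg adjustment over all genes tested. The SE is the log2 fold change divided by the root of F. RPKM used the summed length of merged exons and the TMM-scaled library size. Named genes of other lists were the up to 3 called genes with the largest fold change in each direction and comparison, no overlap of replicates and a mean above 50 in the higher group, with fewer printed here. The 3 nearest profiles were named for each transporter. Alternatives were DESeq2 1.42.0, DESeq2 size factors, no filter on low counts, only the groups compared, the replicate number as a block, a term for sex (over 1000 Y-linked reads), a fold of at least 2 with a mean above 50, leaving out each library and, added after seeing the data, library totals. The scripts were tested on simulated counts. Counts per library from 10758571 to 24119489 limit the precision of Slc7a11 and Slc1a4 above all, and with 3 libraries per group smaller differences can be missed.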

Additional observations from a re-analysis of the deposited data

Results flagged for a closer look

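The results below stood out because the response of tolerized cells differed from that of naive cells in a direct test of the difference (edgeR's quasi-likelihood test on the contrast of contrasts, Benjamini-Hochberg adjusted over 17240 genes, 3 libraries per group). After antigen, the tolerized log2 response was smaller for Slc38a1 (-1.19, adjusted p = 5.3e-08), Slc7a1 (-0.77, adjusted p = 3.3e-05), Slc1a5 (-0.65, adjusted p = 0.0012) and Slc3a2 (-0.50, adjusted p = 0.0024). It was larger for Slc1a4 (1.24, adjusted p = 0.049, with adjusted p from 0.021 to 0.13 over its alternatives).

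After PI, the tolerized response was larger for Slc7a1 (1.73, adjusted p = 1.1e-09), Slc1a4 (1.59, adjusted p = 0.0097), Slc7a6 (1.09, adjusted p = 1.6e-06), Slc7a5 (0.66, adjusted p = 2.5e-05), Slc38a1 (0.61, adjusted p = 0.00029), Slc38a2 (0.60, adjusted p = 0.0024) and Slc3a2 (0.46, adjusted p = 0.0047). N0 and T0 libraries serve both contrasts. The Slc1a4 values rest on 3 to 10 reads per T0 library. Sex differed between N0 and NPI and among the T0 libraries, and with a term for sex all 12 of these differences kept their direction and stayed called. Only T0 and TAg held libraries of both sexes, so the term was set by these groups and taken as equal in naive cells. It cannot separate sex from PI in naive cells, so the part of sex in the PI differences was not tested.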

How the results depend on the processing

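Of 567 member fold changes refitted under 7 alternatives, 524 kept their direction and their side of the adjusted p threshold, 25 lost a call, 6 gained one and 12 changed sign. Of 594 refitted without 1 library, 537 kept both, 36 lost a call, 7 gained one and 14 changed sign. None of the values that changed sign had been called, except Slc7a6 in NPI against N0 (0.54, and -0.0431 with library totals). The replicate numbers did not pair the libraries, since deviations of same-numbered libraries correlated between -0.20 and 0.11 and over 0.1 in 2 of 45 pairs, and the fit with the number as a block changed 0 of 81 calls (8 of 9 genes higher in NAg than in N0, as without the block).

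With a fold of at least 2 and a mean above 50, T0 against N0 gave 0 genes higher (2.61% of all tested genes) and 0 lower (0.644%). TAg against NAg gave 1 lower (2.04% of all) and TPI against NPI 2 higher (3.38% of all). The antigen difference gave 0 higher and 1 lower, and the PI difference 3 higher. For these differences the share of all tested genes at this threshold was not computed, so the counts cannot be set against it. T0 against N0 gave 2 lower with only the groups compared, 3 with library totals and 3 to 4 without 1 library, against 5. The antigen difference gave 0 higher with DESeq2, with DESeq2 size factors, with no filter on low counts and with only the groups compared, 2 with library totals, and 0 to 1 without 1 library. TAg against NAg gave 1 higher with library totals (Slc7a11), and 4 lower both with library totals and with a term for sex, against 6.

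Signs changed for Slc7a6 in T0 against N0 (0.0619 with library totals, 0.0309 with only the groups compared, 0.0280 with a term for sex, -0.138 to 0.0237 without 1 library), Slc1a4 in TAg against NAg (0.141 with library totals, -0.163 to 0.0655), Slc38a2 in TPI against NPI (0.0100 with DESeq2, 0.0100 with its size factors, 0.0132 with only the groups compared, -0.0679 to 0.0392), Slc7a11 in TAg against T0 (-0.0780 with library totals), the antigen difference of Slc7a5 (0.0612 with library totals, 0.00627 with a term for sex, -0.0613 to 0.0340) and the PI difference of Slc7a11 (0.050 with a term for sex). The cause was not tested. Group means moved by less than 1 SD in 50 of 54 cases with DESeq2 size factors and in 14 of 54 with library totals. Leaving out 1 of 3 libraries cannot move a group mean by 1 SD, so it is no check here. Counts of called genes in the other lists stayed within 1.5 times in 54 of 54 cases with DESeq2. Low read counts limit the precision of Slc1a4 and Slc7a11.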
